A study of Drosophila melanogaster with 6 samples.

Results

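The 6 genes croc, bin, fkh, foxo, jumu and CHES-1-like of the forkhead family were examined for H3K27me3, histone H3 trimethylated at lysine 27 by Polycomb repressive complex 2, in wing imaginal discs of Drosophila melanogaster. They are 6 of 13922 protein-coding genes on the 6 chromosome arms that carried peaks, each found by its symbol in a RefSeq gene table of Release 6, the assembly that dm6 names. The members were picked by family and by breadth of use, with earlier results of these data known. croc, bin and fkh were grouped as tissue-specific regulators, and foxo, jumu and CHES-1-like as broadly used ones. These group names were assigned and not measured here, and the roles given below for jumu and CHES-1-like are in particular tissues. The mark had been profiled by CUT&RUN, in which an antibody directs a micrococcal nuclease fusion to cut out the chromatin around it. Control discs carried Act5C-GAL4, alphaTub84B-GAL80ts/UASt-H3 K27R, and the other genotype carried Act5C-GAL4, alphaTub84B-GAL80ts/UASt-H3 K27M, so each expressed an H3 transgene changed at lysine 27, to arginine or to methionine (an oncohistone). The Act5C driver is active in nearly all cells, neither genotype names a change to the fly's own histone genes, and the transgenes were switched on for 72 h by a shift of the larvae, 44 h after egg laying, from 25 °C to 32 °C. Discs were taken from larvae of 116 to 119 h, 20 per replicate, and each genotype had 2 H3K27me3 libraries and 1 IgG library.

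Forkhead factors bind DNA through a winged-helix domain first described in the fly gene fork head, and the family divides into lettered classes named Fox. Some members act in a few tissues of the embryo, where they set the fate of a germ layer or organ, whereas others serve in most cells, as FoxO does in the response to insulin and to starvation. Polycomb repressive complexes keep developmental regulators silent outside the tissues that use them, and in flies their mark lies in broad blocks over such genes.

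The data were the authors' list of 1709 broad H3K27me3 peaks in H3K27R discs, attached by the labels to both replicates as 1 list, and their list of 148 genes higher with H3K27M. For each peak the authors give a fold enrichment, relative to a background set by the peak caller, and a −log10 q-value. Peaks of −log10 q-value 10 or more are called strong here. Neither list holds replicate values or read depth, so no test or replicate error can be given, and the values below describe 1 peak set. The discs were profiled whole, and marked chromatin in fewer cells cannot be told apart from less of the mark per cell. No RNA values were at hand, so neither the tissue nor the expression of these genes could be checked against markers.

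The 6 genes fell into those that lay wholly or almost wholly inside a single strong peak and those with no peak at all. The 3 tissue-specific genes croc, bin and fkh were covered over 99.4 to 100% of their spans at 13.7- to 16.2-fold enrichment. The 3 broadly used genes foxo, jumu and CHES-1-like were covered over 0%. In all, 3 of 6 members overlapped a peak by at least 1 bp, compared with 7.22% of all protein-coding genes, and in the same 3 coverage reached 50% of the span or more, as in 4.04% of all genes. Only croc and fkh were covered over 100%, as were 2.51% of all genes. All 3 joined coverage of 50% or more with a peak of at least 10-fold, as did 1.16% of all genes. Strong peaks lay over the same 3 genes, compared with 3.43% of all genes. Because the members were chosen with earlier results of these data known, these shares describe the members and are no test. The median covered share was 49.7% over the 6 members and 0% over all protein-coding genes. The value for the members is a midpoint between uncovered and covered genes, and no member was near it. The covered members were also the shorter ones, with spans of 2347 to 4289 bp against 11431 to 31034 bp for the uncovered members, and the median span of all protein-coding genes was 2163 bp.

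**Figure D1:**
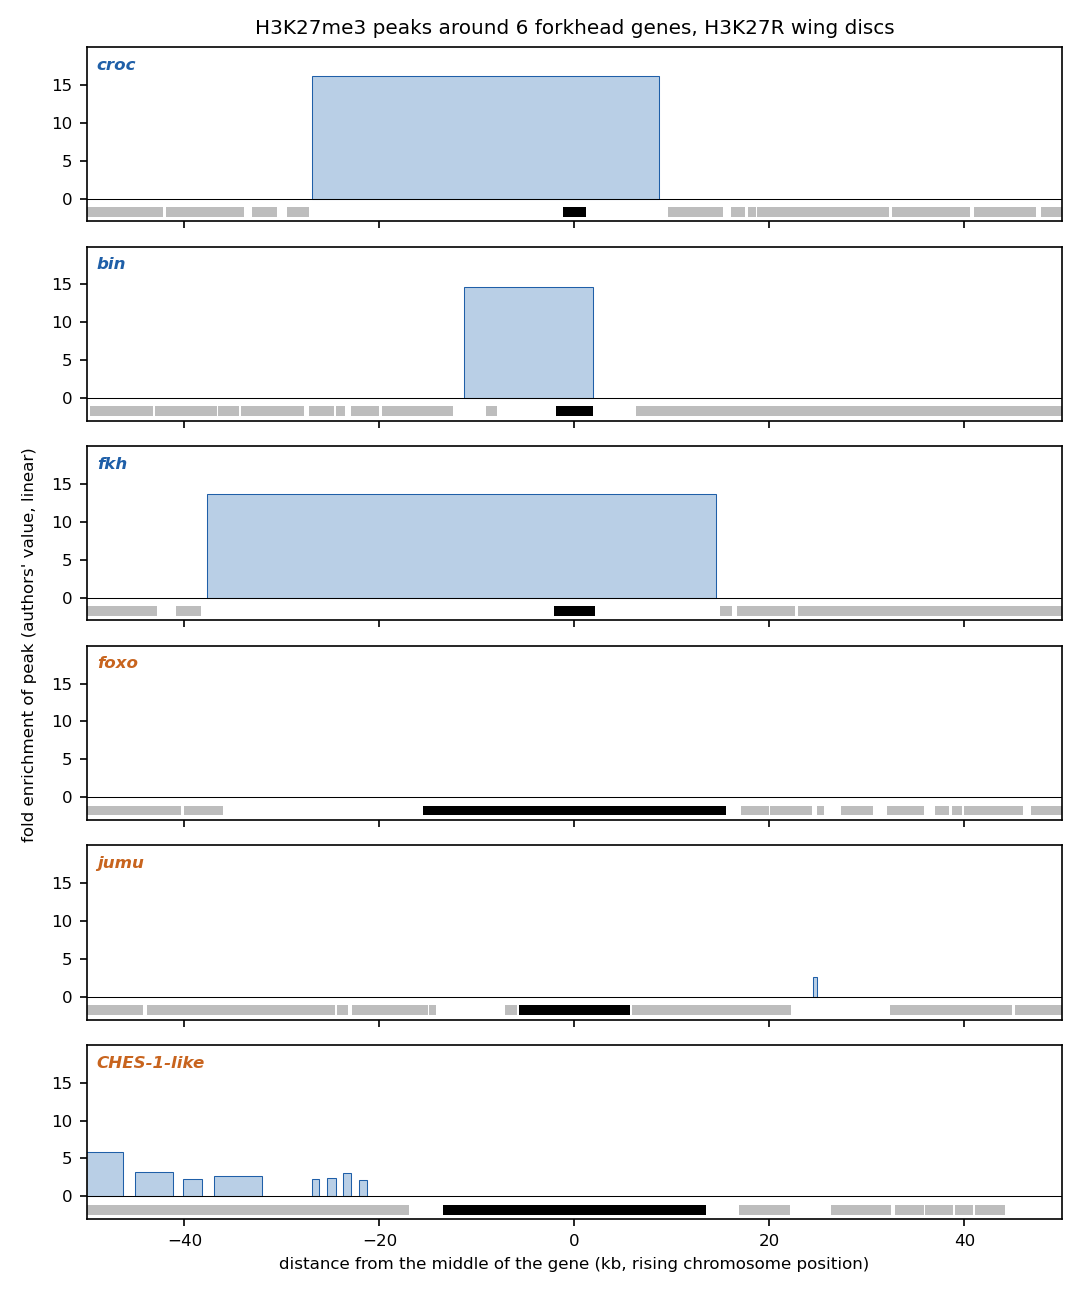
Each panel shows 1 gene (black box) with protein-coding neighbours (grey boxes) and the H3K27me3 peaks of H3K27R discs (blue boxes, height is the authors' fold enrichment on a linear axis), against distance from the middle of the gene in kb. The peaks over croc, bin and fkh stand at 13.7- to 16.2-fold, the windows of foxo and jumu hold no peak or a single small one, and weak peaks approach CHES-1-like from 1 side.

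Among the covered genes, croc carried the highest enrichment. croc, the fly FoxC gene, patterns anterior head segments of the embryo (Dmel_CG5069, 3L 21474133 to 21476479). It was covered over 100% by a peak of 35.6 kb (3L 21448373 to 21483979) with a fold enrichment of 16.2 and a −log10 q-value of 147.0. This peak ranked 9th of 1709 by fold enrichment, 11th by −log10 q-value and 65th by width. The gene made up 6.59% of its peak, which ran 25.8 kb beyond the gene toward lower coordinates and 7.50 kb toward higher ones. It held no other protein-coding gene.

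fkh had the widest block of the members. fkh, the FoxA gene and founder of the family, directs development of the gut ends and the salivary glands (Dmel_CG10002, 3R 28580976 to 28585264). A peak of 52.3 kb (3R 28545404 to 28597660) covered 100% of it at 13.7-fold, with a −log10 q-value of 119.5. The peak ranked 27th by fold enrichment, 30th by −log10 q-value and 38th by width, so fkh stood below croc in strength and above it in width. It reached 35.6 kb toward lower and 12.4 kb toward higher coordinates, and besides fkh it held the long non-coding RNA genes lncRNA:CR43126 and lncRNA:CR43440, each covered over 100%.

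bin had the narrowest and least symmetric block. bin, the FoxF gene, is required for the visceral mesoderm that makes gut muscle (Dmel_CG18647, 3L 6990622 to 6994447). Its peak of 13.2 kb (3L 6981227 to 6994423) ranked 185th by width but 20th by fold enrichment (14.7) and 17th by −log10 q-value (135.3). The peak stopped 24 bp inside the gene's higher end, which left 99.4% of the span covered, and ran 9.40 kb past the other end. The gene made up 28.8% of its peak, more than in croc or fkh, and the peak also held CG32388 and CG43439, which share 1 span and were each covered over 100%. Extending the gene by 2 kb on each side lowered the covered share of bin to 74.1% and left croc and fkh at 100%. That extension brought no further member to a peak, and 9.83% of all protein-coding genes overlapped one with it.

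**Figure D2:**
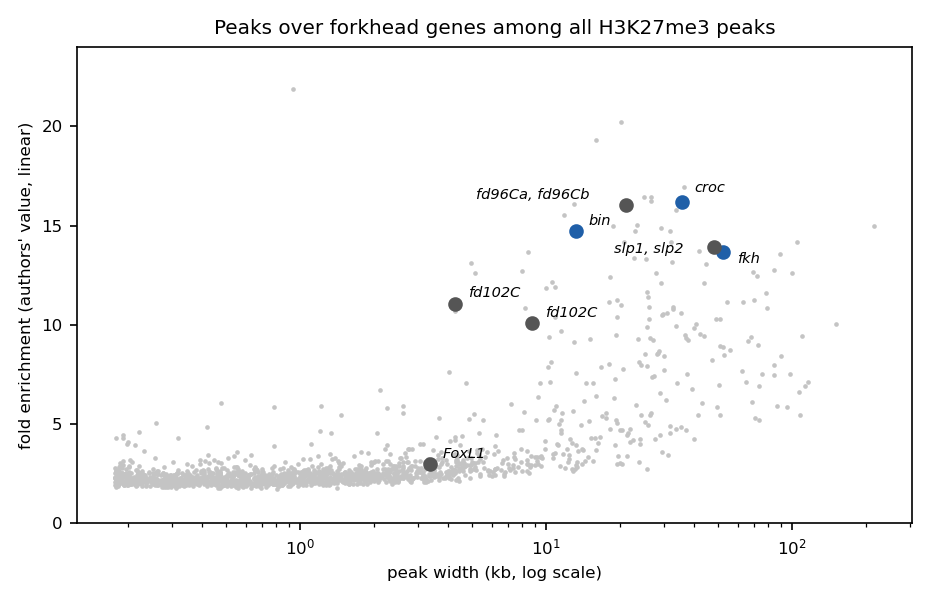
Each grey point is 1 of 1709 H3K27me3 peaks in H3K27R discs, by width (kb, log axis) and the authors' fold enrichment (linear axis), with peaks over croc, bin and fkh in blue and over other forkhead genes in dark grey. All labelled peaks except that over FoxL1, at 3.00-fold, stand at 10-fold or more.

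The blocks over croc and fkh filled almost the whole stretch between the genes on either side. The croc peak ended 244 bp short of Syx7, a syntaxin gene, and 911 bp short of Neu2. It filled 96.9% of the 36.8 kb between them. The fkh peak ended 586 bp from mIF2 and 398 bp from Noa36, and filled 98.2% of 53.2 kb. Syx7, Neu2, mIF2 and Noa36 were each covered over 0%. The bin peak, whose higher edge lay inside bin itself, began 1182 bp from Galphai, a G protein subunit gene, and left 4419 bp uncovered before Mp, a collagen gene. Among all 225 peaks of at least 10 kb, 83 had both edges between protein-coding genes, and these filled a median of 61.8% of the stretch (quartiles 39.3% and 87.6%). Of the 260 edges between genes, 85 (32.7%) lay under 1 kb from the next gene, and the median gap was 3810 bp. The gaps to the neighbouring genes on both sides summed to 34.4 kb for croc, 49.0 kb for fkh and 10.4 kb for bin, compared with medians of 2.59 kb over all protein-coding genes and 11.1 kb over those with a peak.

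The broadly used genes lay at different distances from the mark. foxo, the fly FoxO gene and the transcriptional effector of insulin signalling (Dmel_CG3143, 3R 14056945 to 14087978), was 94.1 kb from the nearest peak, and no base within 50 kb of it on either side was in a peak. Of the 12917 protein-coding genes without a peak, 57.0% were at or below this distance, and their median was 75.9 kb. That nearest peak (1228 bp, 2.22-fold) lay over Kots, which ends the 122.0 kb domain of ems, a head gap gene. A domain here joins peaks that lie no more than 5000 bp apart. On the other side the nearest peak was 256864 bp away. Its neighbours CG9922, 20546 bp away, and Npc2b, 1538 bp away, had no peak either.

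jumu had a small weak peak nearby and no strong one. jumu, a gene of the FoxN type that acts in neuroblasts, blood cells and heart progenitors (Dmel_CG4029, 3R 10350182 to 10361612), was 18.8 kb from a peak of 401 bp with a fold enrichment of 2.55 and a −log10 q-value of 3.51. This peak lay between Rfx and cwo and overlapped no protein-coding gene. The nearest strong peak was 141.5 kb away, over Syn and Timp, at 4.00-fold. jumu sat among close neighbours, 171 bp from CG31406 and 147 bp from Rfx, neither of which overlapped a peak.

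CHES-1-like held no peak, and a wide block ended 32.7 kb from it, with weaker peaks in between. CHES-1-like, which with jumu controls the specification and division of heart progenitors in the fly embryo (Dmel_CG12690, X 7682338 to 7709385), was 3478 bp from ct, a homeodomain gene active at the wing margin. ct was covered over 78.7% of its span. The nearest peak, 7.72 kb from CHES-1-like, was 839 bp wide at 2.11-fold, and 8.65% of protein-coding genes without a peak were at or below that distance. It belonged to a run of 4 peaks, 5.69 kb in all and at most 3.10-fold, inside ct. The 95.1 kb peak over the lower part of ct, at 5.88-fold, ended 32.7 kb from CHES-1-like. On the other side, CG15478 at 3397 bp had no peak, and the next peak was 737395 bp away.

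**Figure D3:**
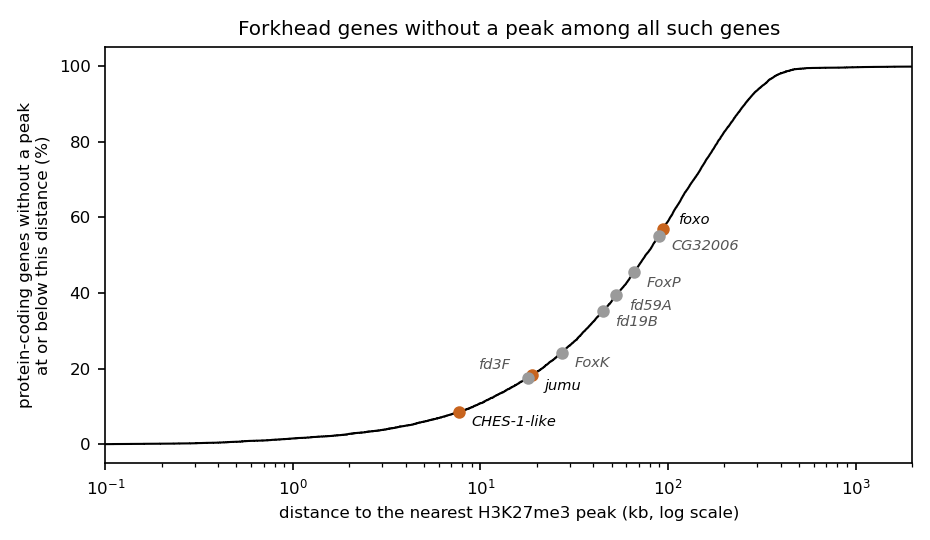
The line gives the cumulative share (%) of the 12917 protein-coding genes without a peak by distance to the nearest H3K27me3 peak (kb, log axis), with foxo, jumu and CHES-1-like in orange and other forkhead genes without a peak in grey. CHES-1-like at 7.72 kb and jumu at 18.8 kb are below the median of 75.9 kb, and foxo at 94.1 kb is above it.

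Coverage beside the genes separated the members further. In the first 5 kb on each side, croc and fkh were covered over 100%. bin was covered over 100% toward lower and 0% toward higher coordinates. Genes with a peak averaged 44.9% over the same windows, and genes without one averaged 1.09%. For CHES-1-like the lower side rose away from the gene, from 0% within 5 kb to 29.8% at 5 to 10 kb, 47.6% at 10 to 25 kb and 91.5% at 25 to 50 kb, whereas the higher side was at 0% throughout. Summed over 50 kb on both sides, CHES-1-like (31.5%) was close to croc (33.3%) and above bin (9.40%), although its own span held no peak. fkh reached 48.0% over these windows, jumu 0.40% and foxo 0%, beside a mean of 6.33% for all protein-coding genes.

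**Figure D4:**
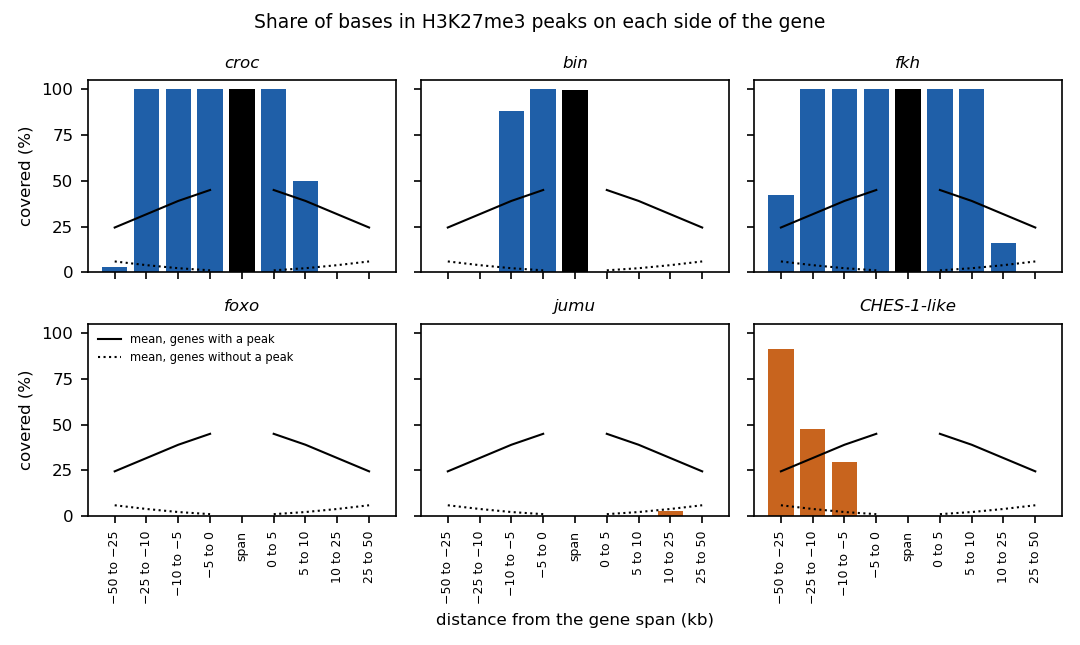
Bars give the share (%) of bases in H3K27me3 peaks in windows of distance (kb) on either side of each gene, with the gene span in black, and lines give the mean over all protein-coding genes with a peak (solid) and without one (dotted). The windows beside croc and fkh reach 100%, bin is covered on 1 side, and the coverage beside CHES-1-like rises away from the gene on 1 side.

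The other forkhead genes included covered loci, uncovered loci and the partly covered genes fd102C and FoxL1. Of 12 further family genes, 6 overlapped a peak and 5 of these met a strong peak, compared with 7.22% and 3.43% of all protein-coding genes. Their median covered share was 17.3%, a midpoint between the uncovered genes and FoxL1 (34.6%), against 0% over all genes. slp1 and slp2, the FoxG segmentation genes, shared a peak of 48.3 kb (2L 3813852 to 3862155, 13.9-fold) that filled 98.1% of the stretch between CG3407 and TTLL4B. The FoxB genes fd96Ca and fd96Cb shared a peak of 21.0 kb (3R 25076191 to 25097221, 16.0-fold) whose lower edge lay inside CG11920 (12.7% covered). Each of these 4 genes was covered over 100%. Since slp1 with slp2 and fd96Ca with fd96Cb each lie under 1 peak, these 4 genes stand for 2 blocks.

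The partly covered genes differed in enrichment. fd102C on chromosome 4 (836986 to 844529) was covered over 77.3% by peaks of 11.1- and 10.1-fold, in a 53.1 kb domain of 7 peaks that also held Sox102F. FoxL1 (3L 4018878 to 4021279) was covered over 34.6% by a peak of 3369 bp at 3.00-fold, with a −log10 q-value of 5.88. This was the only overlapping peak among the 18 forkhead genes that stood below 10-fold.

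The 6 other family genes had no peak. fd3F, a regulator of ciliary motility genes in chordotonal neurons, was 18.0 kb from the nearest one. FoxK was 27.2 kb away, fd19B 45.0 kb, fd59A 52.9 kb, FoxP, which acts in neurons, 65.7 kb, and CG32006 89.1 kb. By the roles given here, fd3F and FoxP are of restricted use, and neither had a peak. Breadth of use was not graded over the other family genes and was not tested. Crg-1, a forkhead-type gene added after its values were seen, had no peak and was 31.7 kb from one. Across the 18 genes, 9 overlapped a peak, beside 7.22% of all protein-coding genes. Of these, 8 met one of 10-fold or more, in 7 different peaks out of 74 of that height in the list. Those 8 genes were each covered over 50% or more, and 1.16% of all protein-coding genes joined such coverage with a peak of 10-fold or more.

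**Figure D5:**
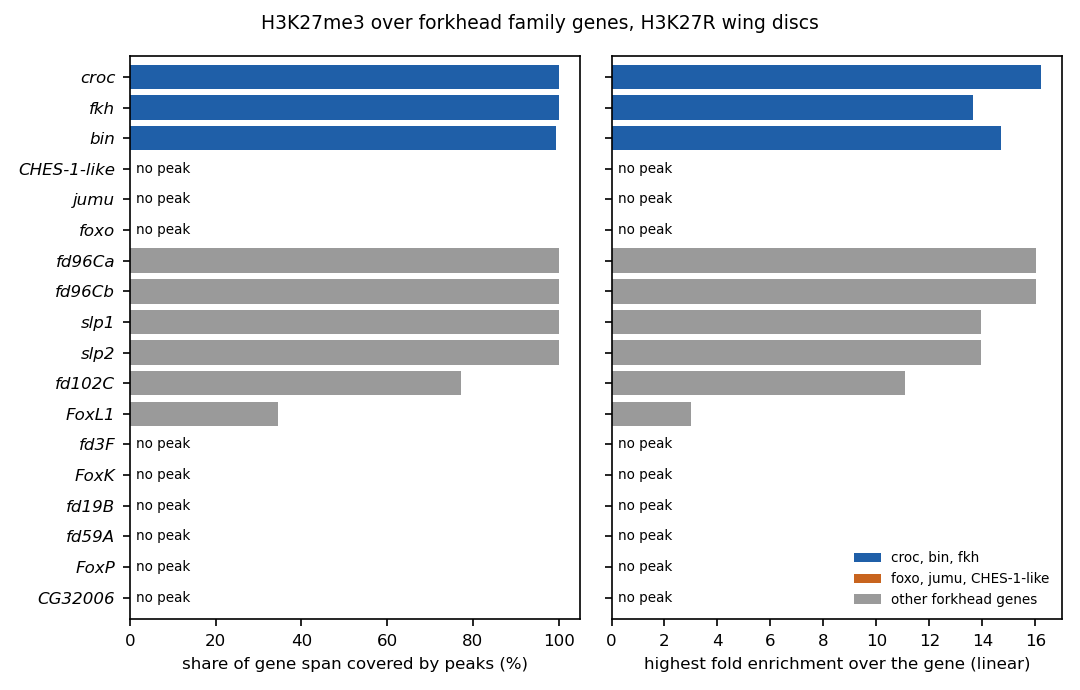
Bars give, for each of 18 forkhead genes, the share of the span covered by H3K27me3 peaks (%, left) and the highest fold enrichment over the gene (authors' value, linear, right), with croc, bin and fkh in blue, foxo, jumu and CHES-1-like in orange and other genes in grey. Of the 18 genes, 9 have no peak, 8 meet a peak of 10-fold or more, and FoxL1 stands between them at 3.00-fold. Among all protein-coding genes, 7.22% overlap a peak.

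In the insulin and FoxO pathway, 1 of 27 genes overlapped a peak (3.70%). The share over all protein-coding genes was 7.22% and the median covered share was 0% in each, so the count is no result about this pathway. The gene was ImpL2, a secreted binding protein of insulin-like peptides (42.6% covered, 2.36-fold). None of the ligand genes Ilp1 to Ilp8 overlapped a peak, with Ilp6 the nearest at 3.13 kb and the cluster of Ilp1 to Ilp4 at 117.2 to 122.1 kb. The receptor gene InR was 415 bp from a peak without overlapping it. Among the intracellular components, Akt was 18.6 kb from a peak, chico 46.2 kb and mTor 31.5 kb, and Thor, a target of FoxO that encodes a translation inhibitor, was 13.8 kb away.

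Pooled over 4 lists, most partners of the other members were covered, though the share with a peak ran from 44.4% to 81.8% by list. Over 38 different genes of 4 partner lists, 25 overlapped a peak (65.8%, beside 7.22% of all protein-coding genes) and in 24 coverage reached 50% or more (beside 4.04%). The median covered share was 86.3%, beside 0% over all genes. Many of them are developmental regulators that were already known to carry peaks in these data. Some share 1 peak, as tin does with bap and GATAe with pnr, so the 25 genes stand for fewer blocks. In the visceral mesoderm list of bin, 4 of 9 genes overlapped a peak, and the median covered share was 0%. They were tin and bap, homeodomain genes under 1 peak at 14.2-fold, and org-1 (58.2%, 3.26-fold) and twi (51.1%, 3.40-fold), while Mef2, HLH54F, jeb, Alk and Fas3 had none. In the gut and salivary gland list of fkh, 7 of 12 did. Among them, cad (20.2-fold), byn (13.2-fold) and GATAe (16.3-fold) were covered over 100% and Scr, the Hox gene of the salivary gland segment, over 99.3%. srp was covered over 97.7% at 11.3-fold and rib over 93.1% at 16.2-fold. hth differed from these, with 25.2% of its span in 20 separate peaks of at most 3.76-fold, while sage, CrebA, exd, hkb and tll had no peak.

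In the head patterning list of croc, 6 of 8 genes overlapped a peak, beside 7.22% of all protein-coding genes. Of these, oc, btd and ems were covered over 100% at 10.3-, 8.43- and 7.96-fold, kn over 94.0%, bcd over 65.5% and cnc over 55.7%, while tll and gt were 3.21 and 3.51 kb from one. In the heart progenitor list of jumu and CHES-1-like, 9 of 11 genes overlapped a peak, beside the same 7.22%, and neither jumu nor CHES-1-like did. Among the 9 was tin, already described. Doc1, Doc2 and Doc3 were covered over 100% under 1 peak at 13.1-fold, as were mid and H15 under 1 at 10.1-fold. pnr was covered over 95.1% at 16.3-fold, under the peak that also covered GATAe. svp was covered over 98.1% at 6.92-fold and Hand over 79.6% at 3.19-fold. The genes without a peak were fz, a Wnt receptor gene at 26.5 kb, and polo, a mitotic kinase gene at 229.5 kb.

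The genes most alike to the covered members were sought among 1004 other protein-coding genes with a peak, by covered share, log2 fold enrichment and log10 domain width, each divided by its SD. Nearest to croc were the Hox gene Dfd (100% covered, 16.4-fold, 43.1 kb) and tbrd-2 (16.2-fold, 26.6 kb). The peak over tbrd-2 is the one that also covered rib. Nearest to fkh were Optix, an eye determination gene (100%, 13.7-fold, 51.2 kb), and its relative slp1. For bin they were CG32388 and CG43439, which lie in the same peak, and genes at other loci were not ranked for it.

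None of the 6 members was on the authors' list of genes that were higher with H3K27M, and none overlapped a listed interval by 1 bp. The list held 0.941% of all protein-coding genes, and 1.57% overlapped a listed interval, so 0 of 6 is no result about these genes. A count of 0 of 6 allows a share of up to 45.9% (exact 95% Clopper-Pearson interval, counting error only), and 0 of 18 forkhead genes allows up to 18.5%. Such intervals treat genes as independent random draws, whereas these genes were chosen and some are neighbours under 1 peak. Nor was any gene of the insulin and FoxO list (0 of 27, up to 12.8%) or the partner lists (0 of 38, up to 9.25%) listed. Among the members, foxo had the nearest listed gene, Kots at 92.8 kb, the gene over which the nearest peak of foxo also lay, and fkh the farthest at 1997 kb.

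FoxL1 lay closest to listed genes within the family. The listed genes CG11594, Gr64a and Gr64f, the last pair being taste receptor genes, were 1.42, 5.49 and 14.5 kb from it. None of the 3 overlapped a peak. They were 2.99, 7.06 and 16.1 kb from the nearest one, the weak peak that covers part of FoxL1. Next came fd3F, with CG2901 at 17.2 kb, which itself overlapped the 265 bp peak nearest to fd3F over 7.91% of its span.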

How the data were processed

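The submitters' processing notes name Bowtie2, MACS2 and the build dm6, without versions or roles. Not given in the sources used here are the peak threshold, the background, how replicates were joined and how the upregulated genes were called. Per the file layout, each deposited peak has a score, a fold enrichment, and its p- and q-value as −log10. In 100% of peaks the deposited score equalled 10 × the −log10 q-value, cut to a whole number, so it was set aside. All 148 listed intervals equalled the span of exactly 1 gene. H3K27me3 signal, H3K27M peaks and IgG libraries were not analysed here.

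Positions are 1-based. Overlap means that a gene span shared 1 bp or more with a peak. A distance is the difference between the nearest coordinates, and a gap to a neighbouring gene counts the bases between. Start sites and promoter motifs, both planned, were not analysed here because the gene table used has no strand or sequence. All 80 entries of the gene lists matched, fd64A as a synonym of FoxL1 and Tor as mTor by locus tag. The interval computations were tested on simulated data. Python 3.11.15 with pandas 2.3.3 and NumPy 2.4.6 was used. Library depth is unknown.

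The naming rule took the 6 members, the 12 other forkhead genes, neighbours on each side, genes sharing a domain, list genes covered over at least 50%, up to 5 per list without a peak, and the 2 most alike genes. Other insulin pathway genes, genes at the nearest peaks, Crg-1 and the upregulated genes near FoxL1 and fd3F were named after their values were seen. Members and lists were chosen with earlier results of these data known.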

Additional observations from a re-analysis of the deposited data

How the results depend on the processing

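No paired analysis was possible because the peaks come as 1 list for both replicates, which also means that neither replicate could be left out. Of 58 alternative values over 23 results, 45 equalled the main value, 4 were counts that changed by less than 1.5 times, and 9 moved further, where any change of a value other than a count is included. The other forkhead genes with a peak went from 6 to 5 with at least 50% coverage and with strong peaks (−log10 q-value 10 or more), and the partner genes from 25 to 24 and 23. The members overlapping a peak (3) were the same in number under each alternative, whether at least 50% coverage, only strong peaks, or 2 kb added to each side (9.83% of all protein-coding genes) was used. With 2 kb added, the covered share of bin moved to 74.1%. The insulin and FoxO genes with a peak moved from 1 to 0 with at least 50% coverage, to 0 with strong peaks, and to 2 with 2 kb added. With strong peaks, the distance to the nearest peak moved to 98439 bp for foxo, 141520 bp for jumu and 32737 bp for CHES-1-like, since fewer peaks remain. With peaks of the median fold enrichment (2.39) or more it moved to 98439 bp for foxo and 9351 bp for CHES-1-like. Distances of jumu and CHES-1-like therefore rest on weak peaks. The widths of the domains over croc, bin and fkh were the same with gaps of up to 1000 or 10000 bp.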
